A study of Rattus norvegicus with 12 samples.

Results

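The genes described here encode the subunits of voltage-gated sodium and calcium channels and of potassium channels in UMR-106, an osteoblast-like cell line of rat origin. They were taken by symbol, as protein-coding genes whose names begin with Kcn followed by a letter, with Scn followed by a number and a or b, or with Cacn. The rule found 107 of the 20190 genes listed for either genotype: 73 potassium, 13 sodium and 21 calcium channel genes. Of these, 91 were listed for both genotypes, 5 for NFAT5KO cells only and 11 for control cells only. The 107 genes carry 106 symbols, because 2 gene IDs on chromosome 1 are both named Kcnk6.

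RNA was sequenced in 12 libraries, 3 for each of 4 groups: NFAT5KO with +NaCl, NFAT5KO with -NaCl, control with +NaCl and control with -NaCl. NFAT5KO cells carry a CRISPR-Cas9 knockout of Nfat5, the transcription factor that cells use to adapt to high tonicity. They are 1 clone grown from a single cell, and its knockout and any other trait of the clone cannot be told apart. Control cells are labelled wild type for this gene. The NaCl content of the medium was raised (+NaCl) or lowered (-NaCl) by 20 mM for 24 h, so the media differed by 40 mM. All 4 groups were kept with 1 nM calcitriol, the active form of vitamin D. The study asked which genes respond to extracellular sodium in bone cells and whether the response needs NFAT5.

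Voltage-gated sodium and calcium channels open on depolarization and let their ion into the cell, each through a large pore-forming alpha subunit with smaller auxiliary subunits. Potassium channels are a broader group: voltage-gated (Kv), calcium- or sodium-activated, inwardly rectifying and tandem-pore leak channels, most of which draw the membrane potential towards the potassium equilibrium. Osteoblasts do not fire action potentials as neurons do, but they are known to use L-type calcium channels in calcium signalling and calcium-activated potassium channels in the regulation of membrane potential and cell volume. A counted transcript does not show a working channel at the membrane, and in bulk RNA fewer cells of a type and less RNA per cell cannot be told apart.

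The libraries held 14267946 to 22798804 reads, recovered from the deposited normalized counts. Levels are given below as CPM, the recovered reads of a gene scaled to equal library totals, or as RPKM, the same per kilobase of gene length. Nfat5 itself, the check of the labels, lay at 43.3 to 88.5 CPM in the 6 NFAT5KO libraries and at 159 to 267 CPM in the 6 control libraries, without overlap. Its mean was 84.7 CPM with +NaCl and 48.9 with -NaCl in NFAT5KO cells, and 255 and 165 in control cells. Nfat5 reads were thus present in NFAT5KO cells and higher with +NaCl. By qRT-PCR, a different measure, the study did not detect Nfat5 mRNA in these cells. Of 11 osteoblast markers, 10 exceeded 1 CPM in at least 1 library, and Bglap, which encodes osteocalcin, did not. None of the 10 skeletal or cardiac muscle markers and 4 of the 10 neuronal markers exceeded that level. Of 5 glial markers 3 exceeded it, and the glial list summed to 7.7 to 13.7 CPM over the libraries. Of 4 smooth muscle markers 1 exceeded it.

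3 channel genes are picked out here. Scn8a and Kcnq5 passed the test of a difference in NaCl response between the genotypes, and Kcnt1 was nearly missing from the NFAT5KO libraries. The Kcnq5 call was lost under 11 of 22 alternatives, whereas that of Scn8a held under all 22. These 2 calls are 2.3% of the channel genes tested, near the 1.8% of all genes. The promoter sequences of the 3 genes are the 250 bases before the annotated start in RefSeq on GRCr8. Each is written 5′ to 3′ on the strand of the gene, with CG dinucleotides in capitals. They lie at chr7:133860977-133861226 on the plus strand for Scn8a, at chr9:31891282-31891531 on the minus strand for Kcnq5 and at chr3:29081089-29081338 on the plus strand for Kcnt1.
Scn8a: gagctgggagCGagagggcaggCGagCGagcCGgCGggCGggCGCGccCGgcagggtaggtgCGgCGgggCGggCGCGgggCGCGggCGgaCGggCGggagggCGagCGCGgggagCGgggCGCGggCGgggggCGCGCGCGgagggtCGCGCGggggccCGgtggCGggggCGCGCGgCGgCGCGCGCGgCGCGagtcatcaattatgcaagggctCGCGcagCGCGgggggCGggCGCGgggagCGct
Kcnq5: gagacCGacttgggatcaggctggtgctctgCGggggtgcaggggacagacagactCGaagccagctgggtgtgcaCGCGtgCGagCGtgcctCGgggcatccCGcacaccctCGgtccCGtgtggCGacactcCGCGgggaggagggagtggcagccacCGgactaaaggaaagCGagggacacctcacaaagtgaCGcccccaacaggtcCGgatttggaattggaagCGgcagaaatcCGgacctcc
Kcnt1: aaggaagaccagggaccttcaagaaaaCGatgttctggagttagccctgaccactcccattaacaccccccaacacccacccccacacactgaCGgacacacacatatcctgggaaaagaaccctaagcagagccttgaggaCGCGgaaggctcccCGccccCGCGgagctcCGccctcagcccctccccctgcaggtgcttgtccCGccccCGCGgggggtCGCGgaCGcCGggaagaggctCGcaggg
The Scn8a promoter holds 53 CG dinucleotides and is 86.0% G or C, against 20 and 65.2% for Kcnq5 and 16 and 64.8% for Kcnt1. The median over all 27457 RefSeq windows of this length is 6, and over the 66 member windows 14.5 (quartiles 4 and 27.5). None of the 3 windows holds TGGAAA, the core letters bound by NFAT5, on either strand. Of the 106 member symbols these 66 had an entry, and 8 (12.1%) hold TGGAAA, against 19.5% of all windows. The full osmotic response element (TonE), which contains that core, was found in 1 member window (1.52%), that of Kcnmb3, against 5.16% of all windows. A match, or its lack, in these 250 bases is a description of the letters only.

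A gene was called expressed in a genotype where its normalized count averaged at least 10 over the 6 libraries. By that rule 58 channel genes were expressed in NFAT5KO cells and 59 in control cells, 54 of them in both, while 44 of the 107 were expressed in neither. This is 60.4% of the channel genes listed for NFAT5KO cells and 57.8% of those listed for control cells, against 79.4% and 78.4% of all listed protein-coding genes. The Kcnk6 IDs, Kcnrg and Scn3b reached the level in NFAT5KO cells only, and Kcnh3, Kcnh6, Kcnj2, Kcnk13 and Kcnt1 in control cells only. Pore subunits of sodium channels were the most completely expressed class of more than 4 genes, with 8 of 9 in each genotype, and all 4 calcium channel beta subunits were expressed. Of 32 Kv pore genes, 13 were expressed in NFAT5KO and 15 in control cells. Kcnh3 lies inside Spats2 on the same strand and Kcnj13 opposite Gigyf2, so their few reads may belong to those more abundant genes.

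**Figure D1:**
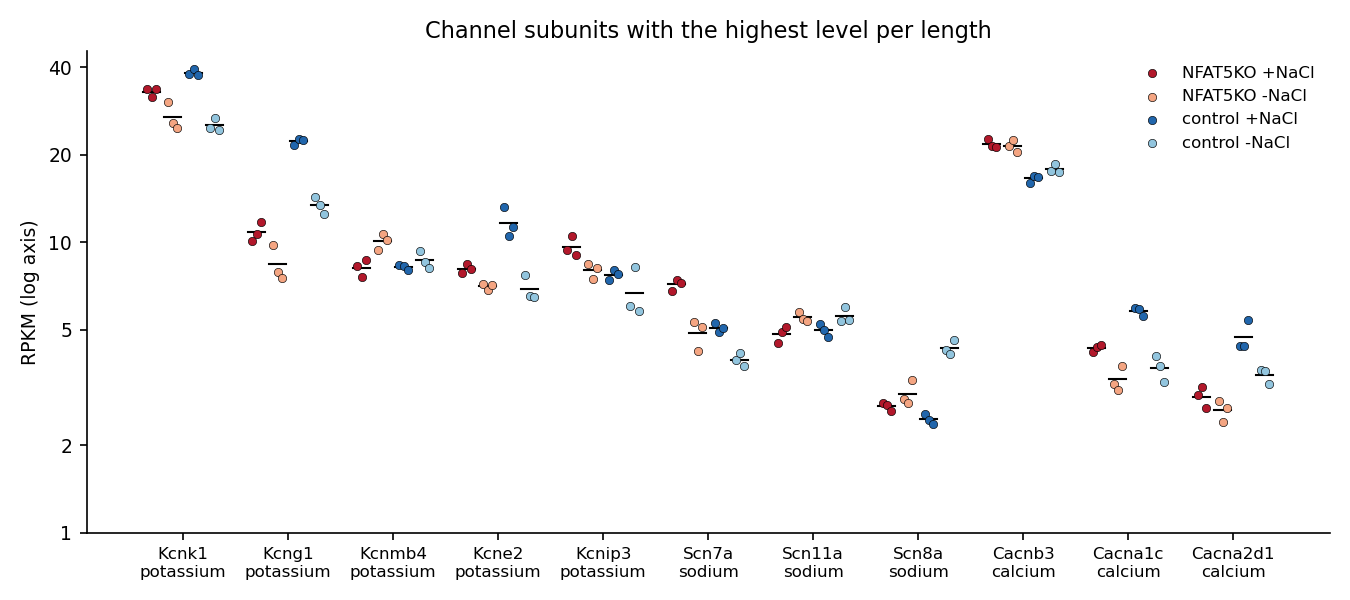
Level per length, in RPKM on a log axis, of the 5 potassium, 3 sodium and 3 calcium channel genes that were highest over the 12 libraries. Points are libraries and bars are group means. Kcnk1 and Cacnb3 lie above the others in every group except for Kcng1 in control cells with +NaCl, and the 3 sodium channel genes lie between 2.37 and 7.43.

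Per length, Kcnk1, which encodes a tandem-pore potassium leak channel, was the highest channel gene. It stood at 33.0 ± 1.3 RPKM in NFAT5KO cells with +NaCl and 27.0 ± 3.0 with -NaCl, and at 38.4 ± 1.1 in control cells with +NaCl and 25.3 ± 1.3 with -NaCl (SD, n = 3 each). Cacnb3, a calcium channel beta subunit that brings the pore to the membrane, came next. Its level was 21.8 ± 0.72 and 21.5 ± 0.95 in NFAT5KO cells with +NaCl and -NaCl, and 16.6 ± 0.49 and 17.9 ± 0.61 in control cells with +NaCl and -NaCl. The groups of the 2 media overlapped for Cacnb3 in NFAT5KO cells, and those of the 2 genotypes did not in either medium. Kcng1, a silent Kv subunit that works only together with other Kv pores, averaged 13.7 over the 12 libraries. Auxiliary subunits followed: Kcnmb4, a beta subunit of the large-conductance calcium-activated channel, at 8.79, Kcne2, a small membrane partner of Kv pores, at 8.42, and Kcnip3, a calcium-binding protein that attaches to Kv4 pores, at 8.02. The order among these last 3 changed with the group: Kcnip3 had the highest mean in NFAT5KO cells with +NaCl, Kcnmb4 in both genotypes with -NaCl, and Kcne2 in control cells with +NaCl. The highest sodium channel genes were Scn7a at 5.26 and Scn11a at 5.23. Scn7a encodes an atypical channel that is known in the brain as a sensor of extracellular sodium rather than of voltage, and Scn11a a channel of pain-sensing neurons. Scn8a followed at 3.13. Among calcium channel genes, Cacna1c, the pore of an L-type channel, stood at 4.30 and its partner subunit Cacna2d1 at 3.45.

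Summed over all members, potassium channel genes took 324, 339 and 336 CPM in NFAT5KO cells with +NaCl, against 339, 323 and 322 with -NaCl. In control cells the sums were 399, 393 and 399 with +NaCl, against 349, 344 and 319 with -NaCl. Only the control groups were apart, and the control +NaCl libraries were the highest of all 12. Kcnk1 alone made up 22.6% of the potassium sum. Sodium channel genes summed to 121, 130 and 128 CPM in NFAT5KO cells with +NaCl and 123, 110 and 124 with -NaCl, and to 116, 116 and 115 in control cells with +NaCl and 112, 116 and 119 with -NaCl. Calcium channel genes took 202, 212 and 199 CPM in NFAT5KO cells with +NaCl, against 190, 185 and 192 with -NaCl. Control cells had 192, 196 and 191 with +NaCl, against 191, 182 and 173 with -NaCl. The sums of sodium channel genes overlapped between media in both genotypes, and those of calcium channel genes were apart in NFAT5KO cells but met in control cells. These sums are descriptions and were not tested.

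The response to NaCl was tested within each genotype, over genes whose normalized count averaged 1 or more, of which 84 were channel genes in NFAT5KO cells and 87 in control cells. In NFAT5KO cells 17 channel genes passed an adjusted p of 0.05 (20.2%), 9 higher and 8 lower with +NaCl, beside a background of 14.7% of all genes tested (7.29% higher and 7.37% lower). Control cells had 26 that passed (29.9%), 14 higher and 12 lower, beside a background of 26.0% (13.3% higher and 12.7% lower). The osteoblast markers moved as well: 4 of 11 rose in NFAT5KO cells (median log2 fold change 0.30) and 10 of 11 in control cells (0.61), none fell, and the response of 3 was lower in NFAT5KO cells. They summed to 5104.4 to 5179.1 CPM in NFAT5KO cells with +NaCl, against 3971.7 to 4586.0 with -NaCl, and to 6485.6 to 6874.4 in control cells with +NaCl, against 3911.5 to 4092.2 with -NaCl. Their part in the channel responses was not tested. Among expressed genes the shares were 29.3% of channel genes in NFAT5KO cells (background 18.0%) and 40.7% in control cells (background 31.9%). Without adjustment, 14 rose and 14 fell in NFAT5KO cells, and 20 rose and 18 fell in control cells. The median log2 fold change of the members was -0.04 in NFAT5KO and 0.06 in control cells, against 0.00 over all genes in either. The genotypes share no libraries, so each is a separate measurement of the response. Of the 17 channel genes called in NFAT5KO cells, 16 had the same sign in control cells (94.1%, against 94.9% of all genes called in NFAT5KO cells) and 14 were also called there (82.4%, against 70.9%). All 25 called in control cells and tested in NFAT5KO cells had the same sign there (all genes called in control cells, 91.1%). The count for NFAT5KO cells rested on the variance model and on single libraries: without the mean-variance trend it was 0, and it was 10 without NFAT5KO +NaCl replicate 3, 8 without NFAT5KO -NaCl replicate 2 and 11 without NFAT5KO -NaCl replicate 3.

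**Figure D2:**
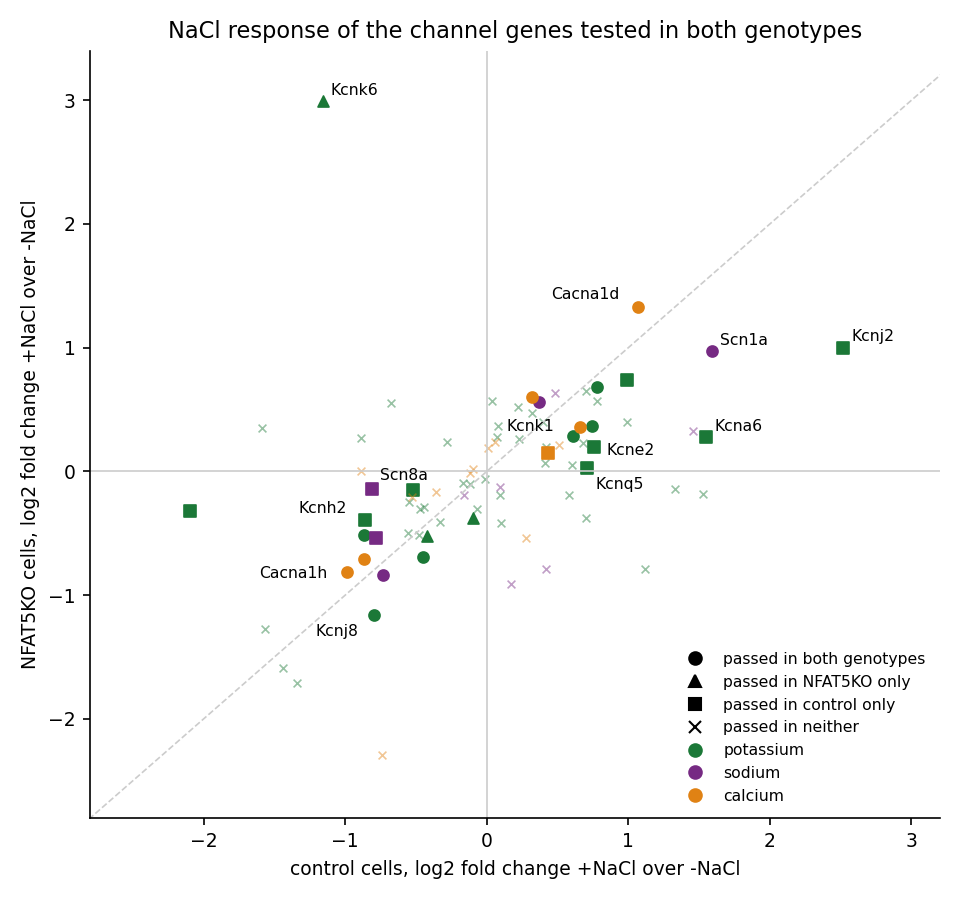
Log2 fold change of +NaCl over -NaCl in NFAT5KO cells (vertical) and in control cells (horizontal) for the 82 channel genes tested in both. Colours give the ion and symbols the genotype in which a gene passed the adjusted threshold. Genes that passed in both lie in the lower left and upper right, Scn8a and Kcnq5 lie close to 0 in NFAT5KO cells only, and Kcnk6 (1 of its 2 IDs) lies apart at 2.99.

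Among Kv pore genes, 1 of the 21 tested rose and 3 fell in NFAT5KO cells, and 3 of 20 rose and 4 fell in control cells. Kcng1 and Kcng2, both silent Kv subunits, moved in opposite directions. Kcng1 counted 505.1, 530.1 and 587.3 in NFAT5KO cells with +NaCl, against 488.9, 395.3 and 374.9 with -NaCl, and 1010.1, 1064.2 and 1057.9 in control cells with +NaCl, against 660.1, 623.2 and 591.9 with -NaCl. It rose by 0.37 (SE 0.11, adjusted p = 0.0355) on the log2 scale in NFAT5KO cells and by 0.74 (SE 0.06, adjusted p = 8.4e-06) in control cells. Kcng2 fell by 0.51 (SE 0.14, adjusted p = 0.0294) in NFAT5KO cells and by 0.87 (SE 0.13, adjusted p = 0.000597) in control cells. Kcnh2, the pore of the hERG channel that repolarizes heart muscle, had a log2 fold change of -0.39 (SE 0.29, adjusted p = 0.417) in NFAT5KO cells, where its counts lay between 18.6 and 32.5. In control cells it counted 89.5, 88.5 and 78.9 with +NaCl, against 147.9, 146.0 and 176.8 with -NaCl, a fall of 0.86 (SE 0.14, adjusted p = 0.00114). The difference of the Kcnh2 responses was 0.47 (SE 0.30, adjusted p = 0.54), so a difference was not shown.

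Kcna6, a Kv1 pore, counted 11.5, 8.34 and 14.4 in NFAT5KO cells with +NaCl, against 8.77, 8.96 and 9.39 with -NaCl, which overlap. In control cells its counts were 46.4, 54.6 and 58.3 with +NaCl, against 16.7, 12.4 and 25.1 with -NaCl, and it rose there by 1.55 (SE 0.30, adjusted p = 0.003). The difference of the Kcna6 responses was -1.27 (SE 0.46, adjusted p = 0.216), so a difference was not shown. Kcnd3, the pore of a fast transient current, passed in NFAT5KO cells only, with a log2 fold change of -0.38 (SE 0.08, adjusted p = 0.0121), beside -0.10 (SE 0.14, adjusted p = 0.654) in control cells. The difference of these responses was -0.28 (SE 0.16, adjusted p = 0.482), so a difference was not shown. Kcnh1, listed for control cells only, had 0, 1 and 2 recovered reads with +NaCl against 1, 0 and 0 with -NaCl. Kcnc4, another Kv pore, also passed in control cells, but on 2, 0 and 0 recovered reads with +NaCl against 5, 6 and 6 with -NaCl. Calls of this group that ended on leaving out a single library were those of Kcng1 in NFAT5KO cells (each of +NaCl replicates 2 and 3 and -NaCl replicates 2 and 3, adjusted p 0.0693 to 0.139), Kcng2 in NFAT5KO cells (each library but -NaCl replicate 1, 0.0614 to 0.13), Kcnd3 (NFAT5KO -NaCl replicate 2, 0.0657) and Kcnc4 (each control library but +NaCl replicate 1, 0.0731 to 0.107). The replicate block gave Kcng1 and Kcng2 adjusted p of 0.06 and 0.0575 in NFAT5KO cells, and edgeR gave Kcnc4 0.0788.

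The tandem-pore gene Kcnk1 rose in both genotypes. Its normalized counts were 1570.3, 1443.8 and 1575.4 in NFAT5KO cells with +NaCl, against 1408.6, 1198.2 and 1146.8 with -NaCl. Control cells had 1651.0, 1727.4 and 1638.5 with +NaCl, against 1061.4, 1154.2 and 1069.3 with -NaCl. No library overlapped between the media, and the log2 fold change was 0.29 (SE 0.08, adjusted p = 0.0267) in NFAT5KO and 0.61 (SE 0.05, adjusted p = 1.13e-05) in control cells. Leaving out any of 4 libraries ended the call in NFAT5KO cells (+NaCl replicates 1 and 3, -NaCl replicates 2 and 3; adjusted p 0.0816 to 0.117). Of the 9 tandem-pore genes tested, the other call was that of 1 Kcnk6 ID in NFAT5KO cells, with 3, 38 and 26 recovered reads with +NaCl against 1, 1 and 2 with -NaCl. This ID had 2, 0 and 13 reads in control cells with +NaCl, against 34, 3 and 3 with -NaCl, so its libraries scattered within each group. It may share reads with the other Kcnk6 ID, DESeq2 did not call it, and replicates 2 and 3 of both NFAT5KO groups each ended the call when left out (adjusted p 0.05 to 0.0748). Kcnk2, a mechanosensitive relative, was not listed as a protein-coding gene for either genotype.

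Inward rectifiers showed 1 rise and 2 falls that passed in at least 1 genotype, among 12 genes. Kcnj2, which sets the resting potential in many cells, was low, with normalized counts of 8.93, 15.5 and 12.7 in NFAT5KO cells with +NaCl, against 3.19, 6.72 and 7.68 with -NaCl. Control cells had 13.6, 22.9 and 23.5 with +NaCl, against 3.52, 4.14 and 0.931 with -NaCl. The media were apart in both genotypes, on few reads. The log2 fold change was 1.00 (SE 0.45, adjusted p = 0.161) in NFAT5KO cells, beside a rise of 2.52 (SE 0.50, adjusted p = 0.00349) in control cells. The difference of the Kcnj2 responses was -1.53 (SE 0.66, adjusted p = 0.335), so a difference was not shown. Kcnj8, the pore of a channel closed by ATP, fell by 1.16 (SE 0.29, adjusted p = 0.0214) in NFAT5KO cells and by 0.80 (SE 0.26, adjusted p = 0.0447) in control cells. Kcnj14 fell by 0.52 (SE 0.12, adjusted p = 0.0167) in NFAT5KO cells, with 128.8, 127.5 and 128.0 normalized counts with +NaCl against 193.8, 193.7 and 167.4 with -NaCl. In control cells its log2 fold change was -0.42 (SE 0.22, adjusted p = 0.199), and the difference was -0.11 (SE 0.27, adjusted p = 0.916). Replicates 2 and 3 of both NFAT5KO groups each ended the Kcnj8 call there when left out (adjusted p 0.0603 to 0.105), and in control cells each library but +NaCl replicate 1 did (0.0944 to 0.138). DESeq2, the fit with no filter and the replicate block also lost it in control cells (0.0803, 0.0599 and 0.0558). That of Kcnj14 was lost without NFAT5KO +NaCl replicate 3 (0.0522) or -NaCl replicate 2 (0.079).

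Among the calcium- and sodium-activated potassium channels, Kcnn1, a small-conductance channel opened by calcium through calmodulin, was the only call in either genotype. It counted 136.5, 145.3 and 152.5 in NFAT5KO cells with +NaCl, against 107.7, 80.6 and 82.8 with -NaCl, and 165.3, 143.1 and 148.4 in control cells with +NaCl, against 102.1, 92.1 and 72.6 with -NaCl. The rise was 0.68 (SE 0.16, adjusted p = 0.0151) in NFAT5KO and 0.78 (SE 0.16, adjusted p = 0.00401) in control cells. In NFAT5KO cells the call was lost on leaving out +NaCl replicate 3, -NaCl replicate 2 or -NaCl replicate 3 (adjusted p 0.0611 to 0.0691). Kcnma1, a large-conductance channel described in osteoblasts, had log2 fold changes of 0.28 (SE 0.37, adjusted p = 0.68) in NFAT5KO and 0.07 (SE 0.25, adjusted p = 0.872) in control cells. Kcnn4, the intermediate-conductance channel that takes part in volume regulation, counted 2.55, 4.77 and 0.0 in NFAT5KO cells with +NaCl, against 3.99, 2.24 and 0.854 with -NaCl, and 10.2, 13.1 and 8.46 in control cells with +NaCl, against 2.64, 1.04 and 7.45 with -NaCl. Its adjusted p was 0.906 in NFAT5KO and 0.0723 in control cells.

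Of 10 auxiliary potassium channel genes tested, none passed in NFAT5KO cells by limma, edgeR or DESeq2 (at an unadjusted p of 0.05, 2 were higher and 1 was lower), while 2 rose and 1 fell in control cells. Kcne2 counted 244.9, 258.5 and 255.1 in NFAT5KO cells with +NaCl, against 224.1, 215.0 and 221.2 with -NaCl. These do not overlap, but the log2 fold change of 0.20 (SE 0.10) had an adjusted p of 0.194. Its counts in control cells were 385.0, 307.0 and 331.7 with +NaCl, against 221.8, 190.5 and 191.7 with -NaCl, a rise of 0.76 (SE 0.11, adjusted p = 0.000548). Kcnab2 and Kcnab1, cytoplasmic beta subunits with the fold of aldo-keto reductases, went opposite ways in control cells, at 0.99 (SE 0.22, adjusted p = 0.0072) and -0.52 (SE 0.13, adjusted p = 0.0131). In NFAT5KO cells they had 0.74 (SE 0.24, adjusted p = 0.0627) and -0.15 (SE 0.14, adjusted p = 0.531). The differences of the responses were -0.25 (SE 0.32, adjusted p = 0.807) for Kcnab2 and 0.36 (SE 0.18, adjusted p = 0.422) for Kcnab1, so neither was shown to differ. Kcnmb4, Kcnip3 and Kcne4, all expressed in both genotypes, did not pass in either.

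Sodium channel pores were divided. In NFAT5KO cells 2 of 8 rose and 1 fell, and in control cells 2 of 9 rose and 3 fell. None of the 3 beta subunits tested passed by limma, edgeR or DESeq2, and 1 was higher at an unadjusted p of 0.05, in control cells. Scn1a, a channel of inhibitory neurons, rose in both genotypes: it counted 313.8, 316.9 and 300.8 in NFAT5KO cells with +NaCl, against 209.8, 128.8 and 146.9 with -NaCl, and 315.9, 372.6 and 346.7 in control cells with +NaCl, against 108.3, 109.7 and 123.8 with -NaCl. The log2 fold changes were 0.97 (SE 0.16, adjusted p = 0.00314) in NFAT5KO and 1.59 (SE 0.11, adjusted p = 3.09e-06) in control cells, with no overlap between media. Scn7a rose less, with 632.7, 682.6 and 680.5 in NFAT5KO cells with +NaCl, against 493.7, 394.2 and 473.1 with -NaCl, and 459.8, 429.4 and 443.5 in control cells with +NaCl, against 338.0, 361.3 and 329.5 with -NaCl. Its log2 fold change was 0.56 (SE 0.09, adjusted p = 0.00318) in NFAT5KO and 0.37 (SE 0.07, adjusted p = 0.00382) in control cells, and the difference of the responses was 0.18 (SE 0.12, adjusted p = 0.55).

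Scn9a, a channel of sensory neurons, went the other way, with 82.9, 103.6 and 92.4 in NFAT5KO cells with +NaCl, against 145.2, 164.6 and 193.8 with -NaCl, and 34.0, 44.8 and 37.6 in control cells with +NaCl, against 55.4, 60.0 and 81.0 with -NaCl. It fell by 0.84 (SE 0.16, adjusted p = 0.00561) in NFAT5KO and by 0.73 (SE 0.23, adjusted p = 0.0355) in control cells. Scn11a, among the highest sodium channel genes, had -0.19 and -0.16 in NFAT5KO and control cells (adjusted p = 0.117 and 0.143). The control call of Scn9a ended when any of 4 control libraries was left out (+NaCl replicates 1 and 3, -NaCl replicates 2 and 3; adjusted p 0.0722 to 0.128). The summed neuronal markers, given here because these sodium channels are best known in neurons, reached 7.71 to 7.84 CPM in NFAT5KO cells with +NaCl and 10.5 to 12.5 CPM with -NaCl. In control cells they reached 8.69 to 9.18 CPM with +NaCl and 8.0 to 10.2 CPM with -NaCl. Of this list 2 of 6 genes tested fell in NFAT5KO cells (Snap25 by 2.55 and Gap43 by 0.88 on the log2 scale) and none rose, with a median log2 fold change of -0.54. In control cells 2 of 7 fell (Snap25 by 2.16 and Tubb3 by 0.92) and Syt1 rose by 0.91, with a median of -0.92. Nefl, Nefm, Rbfox3, Stmn2 and Syp stayed at or below 1 CPM in every library. The part of these markers in the result was not tested.

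5 of these pore genes lie on chromosome 3 within 1317 kb, in the order Scn3a, Scn2a, Scn1a, Scn9a and Scn7a, at positions 51532627 to 52849907 as the deposited tables list them. They are not evenly spaced, as Scn2a ends at 51822250 and Scn1a starts at 52381975. Genes next to each other in this order moved in opposite directions. Scn9a, which fell, lies between Scn1a and Scn7a, which rose, and all 3 are on the minus strand. Scn2a did not pass in either genotype (log2 fold change -0.13 in NFAT5KO and 0.09 in control cells), nor did Scn3a (0.63 with SE 0.32, and 0.48 with SE 0.28).

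**Figure D3:**
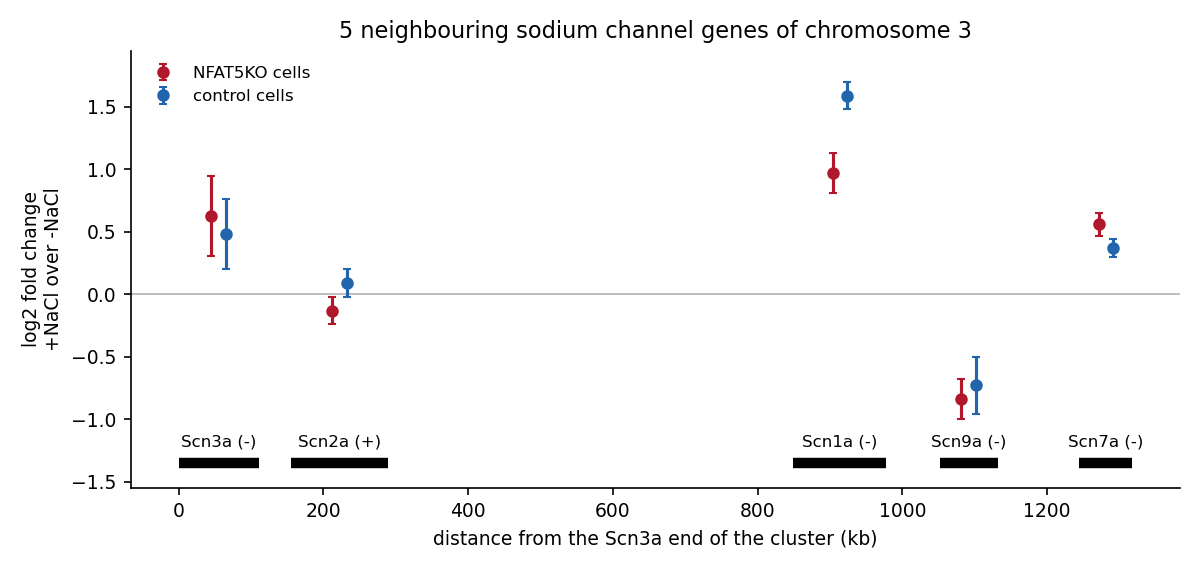
Log2 fold change of +NaCl over -NaCl (points) with its standard error (bars) for the 5 sodium channel genes of chromosome 3, against the distance in kb from the Scn3a end. Black bars mark the genes and signs in brackets their strand. Scn9a lies at -0.84 and -0.73 between Scn1a at 0.97 and 1.59 and Scn7a at 0.56 and 0.37, in NFAT5KO and control cells.

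Calcium channel pores showed a split as well, with 3 of 8 tested higher and 1 lower in NFAT5KO cells, and 3 of 10 higher and 2 lower in control cells. Both L-type pores expressed here rose. Cacna1c counted 609.8, 625.4 and 651.7 in NFAT5KO cells with +NaCl, against 473.8, 454.6 and 541.4 with -NaCl, and 808.5, 807.4 and 766.6 in control cells with +NaCl, against 546.5, 506.2 and 455.1 with -NaCl. Its log2 fold change was 0.36 (SE 0.08, adjusted p = 0.0137) in NFAT5KO and 0.66 (SE 0.07, adjusted p = 8.99e-05) in control cells. Cacna1d, which opens at lower voltage, counted 233.4, 246.6 and 236.4 in NFAT5KO cells with +NaCl, against 111.7, 101.9 and 74.3 with -NaCl, and 275.2, 350.7 and 281.9 in control cells with +NaCl, against 150.5, 123.2 and 157.3 with -NaCl. It rose by 1.33 (SE 0.16, adjusted p = 0.00081) in NFAT5KO and by 1.07 (SE 0.13, adjusted p = 0.000181) in control cells. The difference of the Cacna1d responses was 0.26 (SE 0.21, adjusted p = 0.672). Without NFAT5KO +NaCl replicate 3 or -NaCl replicate 2 the Cacna1c call in NFAT5KO cells was lost (adjusted p 0.0578 and 0.0682).

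The T-type pores, which open near the resting potential, moved apart from each other. Cacna1h counted 125.0, 145.3 and 158.5 in NFAT5KO cells with +NaCl, against 228.1, 240.8 and 283.5 with -NaCl, and 87.2, 87.4 and 83.6 in control cells with +NaCl, against 168.1, 169.8 and 177.8 with -NaCl. It fell by 0.81 (SE 0.13, adjusted p = 0.00321) in NFAT5KO and by 0.99 (SE 0.12, adjusted p = 0.000199) in control cells. Cacna1g rose, by 0.60 (SE 0.10, adjusted p = 0.00429) in NFAT5KO and by 0.32 (SE 0.10, adjusted p = 0.0351) in control cells. In control cells each library but -NaCl replicate 3 ended that call when left out (adjusted p 0.0571 to 0.129), and edgeR gave 0.0512 and DESeq2 0.066. The alpha2delta subunits, which carry the pore to the surface and bind gabapentin, were split too. Cacna2d2 fell by 0.71 (SE 0.13, adjusted p = 0.00462) in NFAT5KO and by 0.87 (SE 0.14, adjusted p = 0.000938) in control cells. Cacna2d1 had 0.15 (SE 0.11, adjusted p = 0.417) in NFAT5KO cells, beside a rise of 0.43 (SE 0.10, adjusted p = 0.0103) in control cells. The difference of the Cacna2d1 responses was -0.28 (SE 0.15, adjusted p = 0.464), so a difference was not shown. None of the 4 beta subunits passed in either genotype by limma, edgeR or DESeq2 (1 was higher and 1 lower at an unadjusted p of 0.05, in control cells), Cacnb3 among them (0.02 and -0.10 in NFAT5KO and control cells). Cacna1b, an N-type pore of synapses listed for control cells only, had 2, 4 and 1 recovered reads with +NaCl against 8, 11 and 13 with -NaCl. Its adjusted p of 0.0317 became 0.0639 to 0.103 when +NaCl replicate 1, +NaCl replicate 3, -NaCl replicate 2 or -NaCl replicate 3 was left out, and DESeq2 did not call it.

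Whether NaCl acted differently in the 2 genotypes was tested as the difference of the 2 log2 fold changes, NFAT5KO minus control, in which the separate scaling of the 2 tables cancels. Of 87 channel genes tested, 2 passed (2.3%), 1 with a higher and 1 with a lower response in NFAT5KO cells, beside a background of 1.8% of all genes (0.362% higher and 1.44% lower). Scn8a, the main sodium channel of the nodes of myelinated axons, had normalized counts of 347.0, 340.7 and 330.5 in NFAT5KO cells with +NaCl, against 360.5, 349.4 and 417.5 with -NaCl. In control cells they were 299.0, 286.3 and 277.2 with +NaCl, against 492.0, 479.3 and 543.5 with -NaCl. The groups overlapped in neither genotype, but the nearest libraries stood at 347.0 and 349.4 in NFAT5KO cells, against 299.0 and 479.3 in control cells. The log2 fold change was -0.14 (95% interval -0.34 to 0.06, adjusted p = 0.34) in NFAT5KO cells, beside a fall of 0.81 (SE 0.08, adjusted p = 3.56e-05) in control cells. The difference was 0.67 (SE 0.12, 95% interval 0.41 to 0.92, adjusted p = 0.00706), and it passed under all 22 alternatives (adjusted p 0.000704 to 0.0316).

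Kcnq5, the pore of a slow non-inactivating current of neurons and smooth muscle, had counts of 172.2, 219.2 and 206.8 in NFAT5KO cells with +NaCl, against 173.1, 213.9 and 197.2 with -NaCl, which overlap. In control cells the counts were 306.9, 323.4 and 336.3 with +NaCl, against 191.9, 198.8 and 198.2 with -NaCl, which do not. The log2 fold change was 0.03 (95% interval -0.25 to 0.32, adjusted p = 0.905) in NFAT5KO cells, beside a rise of 0.71 (SE 0.09, adjusted p = 0.000183) in control cells, and the difference was -0.68 (SE 0.16, 95% interval -1.01 to -0.35, adjusted p = 0.0362). This second call depended on the number of libraries: it was lost on leaving out any of the 12 except NFAT5KO +NaCl replicate 2 and NFAT5KO -NaCl replicate 1 (adjusted p 0.0605 to 0.0989), and without the trend (0.0862). Without adjustment, 2 channel genes had a higher and 9 a lower response in NFAT5KO cells at p of 0.05. Near the threshold lay Kcne2 (-0.56, SE 0.14, adjusted p = 0.0621), which DESeq2 called. Kcnk1 (-0.32, SE 0.10, adjusted p = 0.134), Scn1a (-0.62, SE 0.20, adjusted p = 0.162) and Cacna1c (-0.30, SE 0.11, adjusted p = 0.235) did not pass, so their larger fold changes in control cells were not shown to differ.

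**Figure D4:**
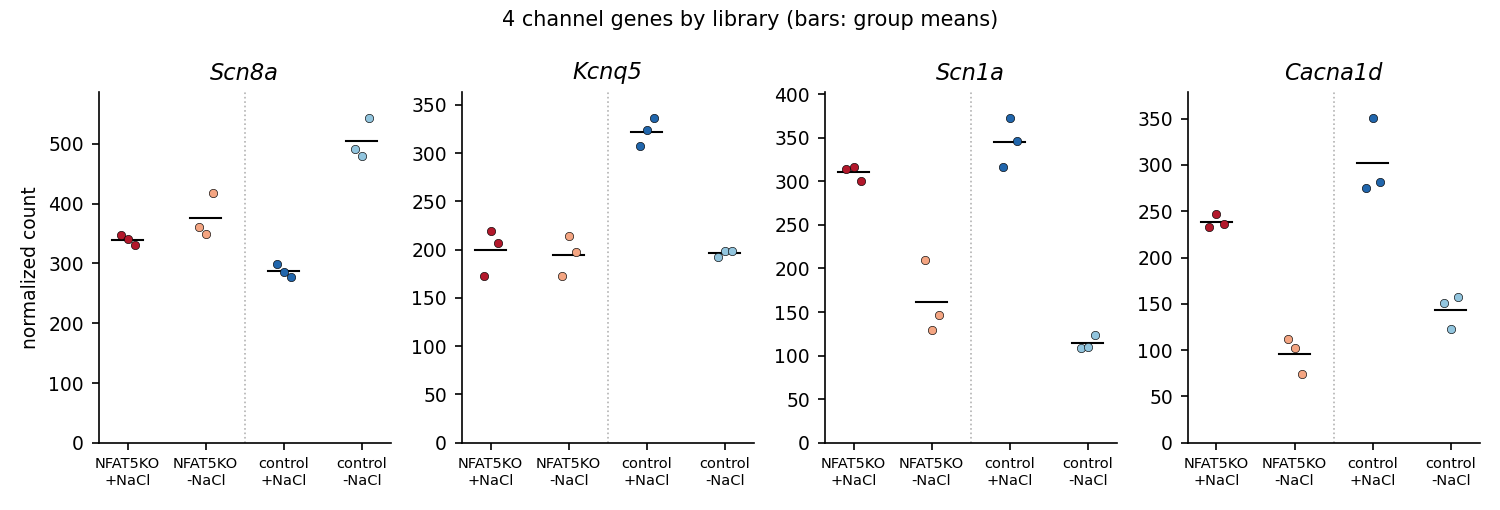
Normalized counts by library (points) with group means (bars) for Scn8a, Kcnq5, Scn1a and Cacna1d, with the NFAT5KO groups left and the control groups right of the dotted line. The 2 genotypes were scaled separately, so only the media of a genotype can be compared. Scn8a and Kcnq5 differ between media by a clear gap in control cells only, whereas Scn1a and Cacna1d do so in both genotypes.

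Levels in the 2 genotypes were compared in CPM, without a test. A gene was counted where the means differed at least 2-fold and the 3 libraries of each genotype did not overlap. With +NaCl, 16 of 87 channel genes met this, 6 higher and 10 lower in NFAT5KO cells, beside a background of 7.32% (2.18% higher and 5.13% lower). With -NaCl there were 17, 4 higher and 13 lower, beside a background of 6.68% (1.73% higher and 4.96% lower). By ion these were 12 potassium, 1 sodium and 3 calcium channel genes with +NaCl, and 13, 3 and 1 with -NaCl. In both media 9 channel genes met it in the same direction, beside a background of 3.13%, with Kcnd3 and Scn9a higher and Cacna1i, Kcna6, Kcnh2, Kcnh6, Kcnk13, Kcnma1 and Kcnt1 lower in NFAT5KO cells. Leaving out control +NaCl replicate 3 or NFAT5KO +NaCl replicate 2 removed Kcnk13 with +NaCl, and leaving out control -NaCl replicate 3 removed Kcna6 with -NaCl.

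Kcnt1, the pore of a potassium channel opened by intracellular sodium, showed the widest gap. It had 0, 1 and 0 recovered reads in NFAT5KO cells with +NaCl, against 82, 78 and 101 in control cells, and 2, 0 and 2 in NFAT5KO cells with -NaCl, against 133, 105 and 116 in control cells. Pooled by depth, control cells had 272 times the reads of NFAT5KO cells with +NaCl (95% counting interval 48.4 to 10795.9) and 99.0 times with -NaCl (38.3 to 365). These intervals cover counting error only. Kcnh2 had 1.05, 1.66 and 1.01 CPM in NFAT5KO cells with +NaCl, against 5.26, 5.18 and 4.6 in control cells, and 1.54, 1.78 and 1.51 with -NaCl, against 8.78, 8.61 and 10.3. Kcnma1 had 1.26, 0.861 and 1.75 in NFAT5KO cells with +NaCl, against 2.4, 4.03 and 4.55 in control cells, and 0.702, 0.98 and 1.51 with -NaCl, against 3.35, 3.72 and 3.08. The level in NFAT5KO cells was 0.248 and 0.174 of that in control cells for Kcnh2, with +NaCl and -NaCl, and 0.353 and 0.314 for Kcnma1.

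Kcna6 was at 0.202 of its control level with +NaCl and 0.468 with -NaCl, Kcnh6 at 0.133 and 0.152, and Kcnk13, a tandem-pore channel inhibited by halothane, at 0.436 and 0.435. Cacna1i, the third T-type pore, rested on few reads, with none in NFAT5KO cells with +NaCl against 4, 4 and 1 in control cells, and 0, 3 and 0 with -NaCl against 4, 6 and 6. In the other direction, Kcnd3 had 22.5, 20.3 and 22.1 CPM in NFAT5KO cells with +NaCl, against 9.51, 9.14 and 9.37 in control cells, and 27.4, 29.5 and 27.3 with -NaCl, against 11.7, 10.6 and 8.23. That is 2.32-fold and 2.76-fold. Scn9a was 2.25-fold and 2.40-fold higher in NFAT5KO cells with +NaCl and -NaCl. Scn9a fell with +NaCl in both genotypes, whereas its level was higher in NFAT5KO cells in both media.

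**Figure D5:**
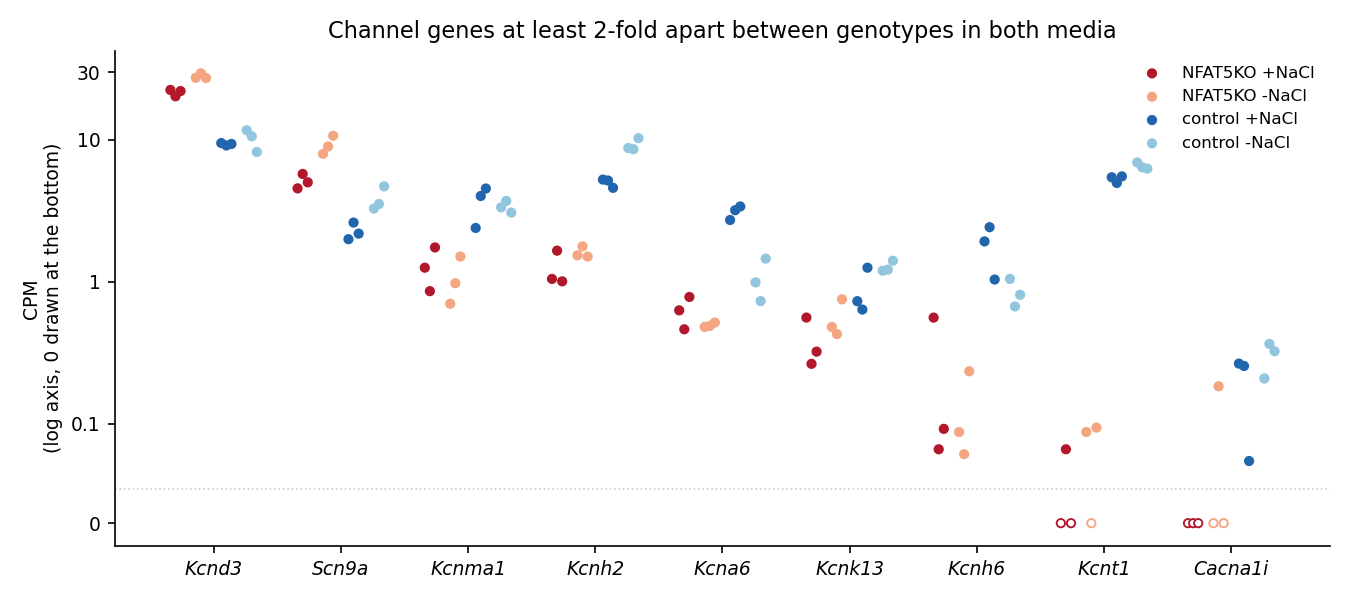
CPM by library, on a log axis with 0 drawn at the bottom as open points, for the 9 channel genes that differed at least 2-fold between genotypes without overlap in both media. Kcnd3 and Scn9a are higher in NFAT5KO cells, and the other 7 are lower, Kcnt1 by the widest gap.

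A list of 59 genes of other names that bind, regulate or work beside these channels was described in the same way, and 46 of them were listed. In NFAT5KO cells 4 of 44 tested rose and 4 fell with +NaCl, and in control cells 7 of 45 rose and 6 fell, beside the backgrounds of 14.7% and 26.0% of all genes called in either direction. Fgf13, an intracellular partner of sodium channels, fell by 0.56 (SE 0.11) in NFAT5KO and by 1.01 (SE 0.12) in control cells, and Ank3, the ankyrin that anchors them, by 0.68 (SE 0.10) and 0.76 (SE 0.12). Nalcn, a sodium leak channel, fell by 0.76 (SE 0.17) in NFAT5KO and by 0.65 (SE 0.12) in control cells. Itpr1, a calcium release channel of the endoplasmic reticulum, rose by 0.32 (SE 0.06) in NFAT5KO and by 0.81 (SE 0.04) in control cells. It was the only gene of the list whose response differed (-0.49, SE 0.07, adjusted p = 0.00087), 1 of 44 tested, beside 1.8% of all genes. Its relative Itpr3 went the other way, with -0.15 (SE 0.07, adjusted p = 0.211) in NFAT5KO cells and a fall of 0.30 (SE 0.06, adjusted p = 0.00393) in control cells.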

How the data were processed

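Poly-A RNA of UMR-106 cells was sequenced as paired ends. The authors deposited 1 table per genotype with a normalized count (signal) per gene and library, in which raw counts had been divided by 1 factor per library. The name of each table contradicts the genotype of its columns, which were taken as labelled. The aligner, counter and strandedness are not given in the sources used here, and the labels name a mouse build although the gene IDs are those of rat. Fold changes and p values of the authors' own comparison were not used, nor were 24 columns without a sample name. Dividing by the smallest step of each library gave whole reads for 100% of values within 0.1 read.

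For log2(normalized count + 1), limma 3.58.1 (R 4.3.3, empirical Bayes with a mean-variance trend) was fitted within each table over 16657 genes in NFAT5KO and 17108 in control cells, and over 16849 genes for the difference, with Benjamini-Hochberg adjustment over all genes. Fold changes of low genes are understated on this scale. Alternatives included edgeR 4.0.16 and DESeq2 1.42.0 on the recovered reads. The scripts were tested on simulated data. With 3 libraries per group an exact permutation test cannot give a p below 0.10. The sources call the libraries biological replicates.

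Members and lists were chosen with earlier results of these data known. Named are members that passed a test, the 5 potassium, 3 sodium and 3 calcium channel genes highest per length, those called between genotypes in both media, those listed for 1 genotype with a group mean of at least 10 reads, and channels best known in osteoblasts or salt sensing. Others named with a count (Kcne4, Kcnh3, Kcnj4, Kcnj13, Kcnmb3, Kcnrg, Scn2a, Scn3a, Scn3b, Cacna1e) were chosen after their values were seen. Some members that passed a test are not reported by name here.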

Additional observations from a re-analysis of the deposited data

Results flagged for a closer look

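The NaCl response differed between the genotypes for 2 channel genes, by the test of the difference itself. For Scn8a the response in NFAT5KO cells minus that in control cells was 0.67 on the log2 scale (limma, adjusted p = 0.00706), and for Kcnq5 it was -0.68 (adjusted p = 0.0362). These are 2.3% of the channel genes tested, beside 1.8% of all genes. The call of Scn8a held under all 22 alternatives, and that of Kcnq5 was lost under 11 of 22, among them 10 of the 12 that left out 1 library (adjusted p up to 0.0989). NFAT5KO cells are 1 clone, in which effects of the knockout and of the clone cannot be told apart. Groups of 3 libraries are too small for a search for outlying libraries.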

How the results depend on the processing

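No call of a named channel gene changed direction under any alternative run: of 727 such values, 632 kept their call, 95 lost it and 0 reversed. The number of channel genes called in NFAT5KO cells was 17 and fell to 0 without the mean-variance trend, which leaves 14 calls over all genes. It ranged from 8 to 18 when 1 library was left out. In control cells the number was 26, and 22 to 25 without 1 library. For the difference of the responses it was 2, became 1 without the trend, and ranged from 1 to 2 without 1 library. Between genotypes with -NaCl, 17 channel genes were counted, 11 with a minimum mean of 10 and 24 at 1.5-fold, and 15 to 21 without 1 library. With +NaCl the number was 16, 12 with a minimum mean of 10 and 22 at 1.5-fold, and 17 to 21 without 1 library. Non-overlap is easier to meet with fewer libraries, so the ranges without 1 library do not measure how stable these counts are.

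With the replicate number as a block, 16 channel genes were called in NFAT5KO cells (Kcng1 and Kcng2 lost, Cacna1e gained), 25 in control cells (Kcnc4 and Kcnj8 lost, Kcnj4 gained) and 2 for the difference. Same-numbered libraries did not deviate together (r = -0.004, -0.078 and 0.026 in NFAT5KO, 0.051, 0.011 and -0.061 in control cells), so the numbers were not taken as pairs. Genes with few reads, such as Kcnj2, Kcnc4, Cacna1b and Cacna1i, are limited by depth.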

Other observations

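In NFAT5KO cells the calcium channel pore Cacna1e fell short of the threshold, with normalized counts of 0.0, 2.38 and 9.32 with +NaCl, against 15.2, 11.2 and 19.6 with -NaCl (log2 fold change -2.29, SE 0.72, adjusted p = 0.054).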
